A study of Mus musculus with 20 samples.

Results

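The genes of the B cell receptor (BCR) and of its first signalling steps were followed through the B-lineage libraries of the study. They are 10 of the 25869 rows of the deposited expression table, found there by gene symbol, and were chosen with earlier results of these data known: Ighm and Ighd, which encode the constant regions of the IgM and IgD heavy chains; Cd79a and Cd79b, the signalling chains of the receptor; the kinases Syk, Lyn, Btk and Blk; the adaptor Blnk; and the phospholipase Plcg2. RNA was sequenced from 6 lymphoma cell lines, 2 primary tumours, 2 preB-ALL samples and 10 libraries of mouse embryonic fibroblasts (MEFs). The lymphomas were Eμ-Myc/dCas9a-SAM KI/+/sgBcl-2: they carried the Eμ-Myc transgene, in which an immunoglobulin heavy chain enhancer drives Myc, 1 copy of the dCas9a-SAM cassette, which activates genes at the promoters to which a guide RNA directs it, and guides for the Bcl-2 promoter. They arose in lethally irradiated mice that had received transduced haematopoietic stem and progenitor cells of foetal liver, so a primary tumour may also hold cells of the host. The labels divide the lines by IgM into 4 IgM-positive and 2 IgM-negative lines, each from a mouse of its own, and both primary tumours are IgM-positive. The preB-ALL samples are pre-B leukaemias with BCR-ABL1 (p190T/+), grown with IL7, and their titles name different further alleles, CreER LSL Erg in preB-ALL 1 and RagCre Erg in preB-ALL 2. The MEFs were WT or dCas9a-SAM KI/+, the latter without a guide, with non-targeting guides or with guides for Bcl-2, and serve here as cells without a BCR. The labels give no age.

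The BCR is a membrane immunoglobulin held together with CD79A and CD79B, whose cytoplasmic tails carry the tyrosine motifs that start the signal. Antigen lets SRC-family kinases such as LYN and BLK phosphorylate these motifs, SYK binds to them, and SYK then phosphorylates the adaptor BLNK, which brings BTK and PLCG2 together so that the phospholipase can release calcium and activate protein kinase C. A pre-B cell has a related receptor, in which the IgM heavy chain pairs with a surrogate light chain encoded by Igll1, Vpreb1 and Vpreb2.

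The 20 libraries held between 12474885 and 26678417 reads on genes, and the 2 preB-ALL libraries, with 14970269 and 12474885 reads, were the shallowest. Values are CPM, the share of a gene in the reads counted on all genes, times 1000000. Summed CPM of 5 B-lineage markers lay between 769 and 1435 in the lines, at 3498 and 3689 in the tumours and at 2735 and 4885 in preB-ALL. The preB-ALL samples differed from the lymphomas in growth medium, RNA kit and run as well as in type, and these cannot be told apart. No read of preB-ALL fell on the 15 mitochondrial genes, against 5.30% to 9.04% of the reads of the lines and tumours. The 8 fibroblast markers summed to 2609 and 1221 CPM in preB-ALL, most of it from collagen genes, and to between 1.49 and 5.40 CPM in the lines and tumours. Of the others among these markers, Pdgfrb was at 183 and 85.1 CPM and Pdgfra at 33.1 and 8.58 CPM in preB-ALL, whereas Dcn was at 0 in both. The T cell markers did not exceed 1.84 CPM in any B-lineage library. What these features contribute to the results was not tested.

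In the RefSeq annotation of GRCm38.p6, Ighm (chr12:113418826-113422730) and Ighd (chr12:113407535-113416324) are neighbouring constant region genes. The others are protein-coding and lie apart, Cd79a at chr7:24897497-24901858, Cd79b at chr11:106311341-106314562, Syk at chr13:52582610-52648792, Lyn at chr4:3678068-3791612, Btk at chrX:134542334-134583628, Blnk at chr19:40928927-40994221, Plcg2 at chr8:117498275-117635142 and Blk at chr14:63372837-63417187. Expression values cover all exons of a gene. Promoter sequence was at hand for 5 of the 10 genes, in 6 entries of the RefSeq tables for GRCm38.p6, and the 250 bases before the start of transcription are shown for 3 of them. Cd79a stands for the receptor genes that were lower in the lymphoma lines than in preB-ALL, Plcg2 is the gene of the group that was higher, and in Blnk 1 of the 6 lines stood apart from the others. Capitals mark matches, on either strand, to 4 sequences: the octamer ATTTGCAT, the ETS-type AGGAAG, the EBF-type CCCNNGGG and the E-box CACCTG. The Cd79a sequence is at chr7:24897247-24897496 (plus strand), that of Blnk at chr19:40994222-40994471 (minus strand) and that of Plcg2 at chr8:117498025-117498274 (plus strand).
Cd79a: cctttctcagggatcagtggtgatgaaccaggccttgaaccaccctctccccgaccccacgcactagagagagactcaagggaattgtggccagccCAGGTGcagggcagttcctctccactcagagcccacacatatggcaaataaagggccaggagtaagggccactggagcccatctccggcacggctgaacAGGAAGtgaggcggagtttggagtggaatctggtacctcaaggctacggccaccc
Blnk: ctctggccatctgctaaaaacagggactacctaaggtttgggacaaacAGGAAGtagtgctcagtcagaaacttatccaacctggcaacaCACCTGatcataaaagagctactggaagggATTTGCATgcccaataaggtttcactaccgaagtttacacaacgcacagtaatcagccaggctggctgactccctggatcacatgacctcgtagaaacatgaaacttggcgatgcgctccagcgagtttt
Plcg2: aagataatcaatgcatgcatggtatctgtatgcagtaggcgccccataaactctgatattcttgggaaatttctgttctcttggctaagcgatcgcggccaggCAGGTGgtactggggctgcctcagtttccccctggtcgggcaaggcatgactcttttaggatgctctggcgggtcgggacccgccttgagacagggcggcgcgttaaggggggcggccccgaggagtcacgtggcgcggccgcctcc
Among the 32851 RefSeq mouse promoters of the same length, 1.6% held the octamer, 29.5% the ETS-type, 11.8% the EBF-type and 17.2% the E-box sequence. The octamer was found in Blnk alone of the 5 genes, beginning 130 bases before the start, and Blnk also held AGGAAG farther upstream. Cd79a held AGGAAG at 55 bases and the reverse complement of CACCTG at 154 bases before the start. An E-box match was also found in Blnk, in Plcg2 and in both Syk entries, while Btk had no match to any of the 4. A match is a likeness of letters and says nothing of binding.

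Within the lymphoma lines, levels per kilobase of exon placed the receptor genes Ighm, Cd79a and Cd79b first and Ighd last. Ighm had a mean of 1021 CPM per kb over the 6 lines, Cd79a 331 and Cd79b 186, followed by Plcg2 with 83.4, Btk with 50.9, Blnk with 36.6, Syk with 23.0, Lyn with 19.4, Blk with 10.8 and Ighd with 5.32. The ranges of neighbours in this order overlapped except between Ighm and Cd79a, between Cd79b and Plcg2, and between Plcg2 and Btk. In the tumours Blk stood in the fourth place, at 107 CPM per kb, and in preB-ALL Ighd did, at 114 CPM per kb. The MEFs held at most 2.87 CPM of Ighm, 0.646 CPM of Cd79a, 0.242 CPM of Cd79b and 0 of Ighd in any of the 10 libraries, but 17.9 to 53.8 CPM of Syk and 12.8 to 25.4 CPM of Lyn, kinases that are not limited to B cells, and 6.43 to 30.4 CPM of Plcg2. The highest MEF levels of Plcg2, of Blnk (4.07 CPM) and of Btk (1.41 CPM) were all in the library MEF WT 2, which also had 295 CPM of summed myeloid markers against 5.12 to 8.58 CPM in the other 9. Their part in these levels was not tested.

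**Figure D1:**
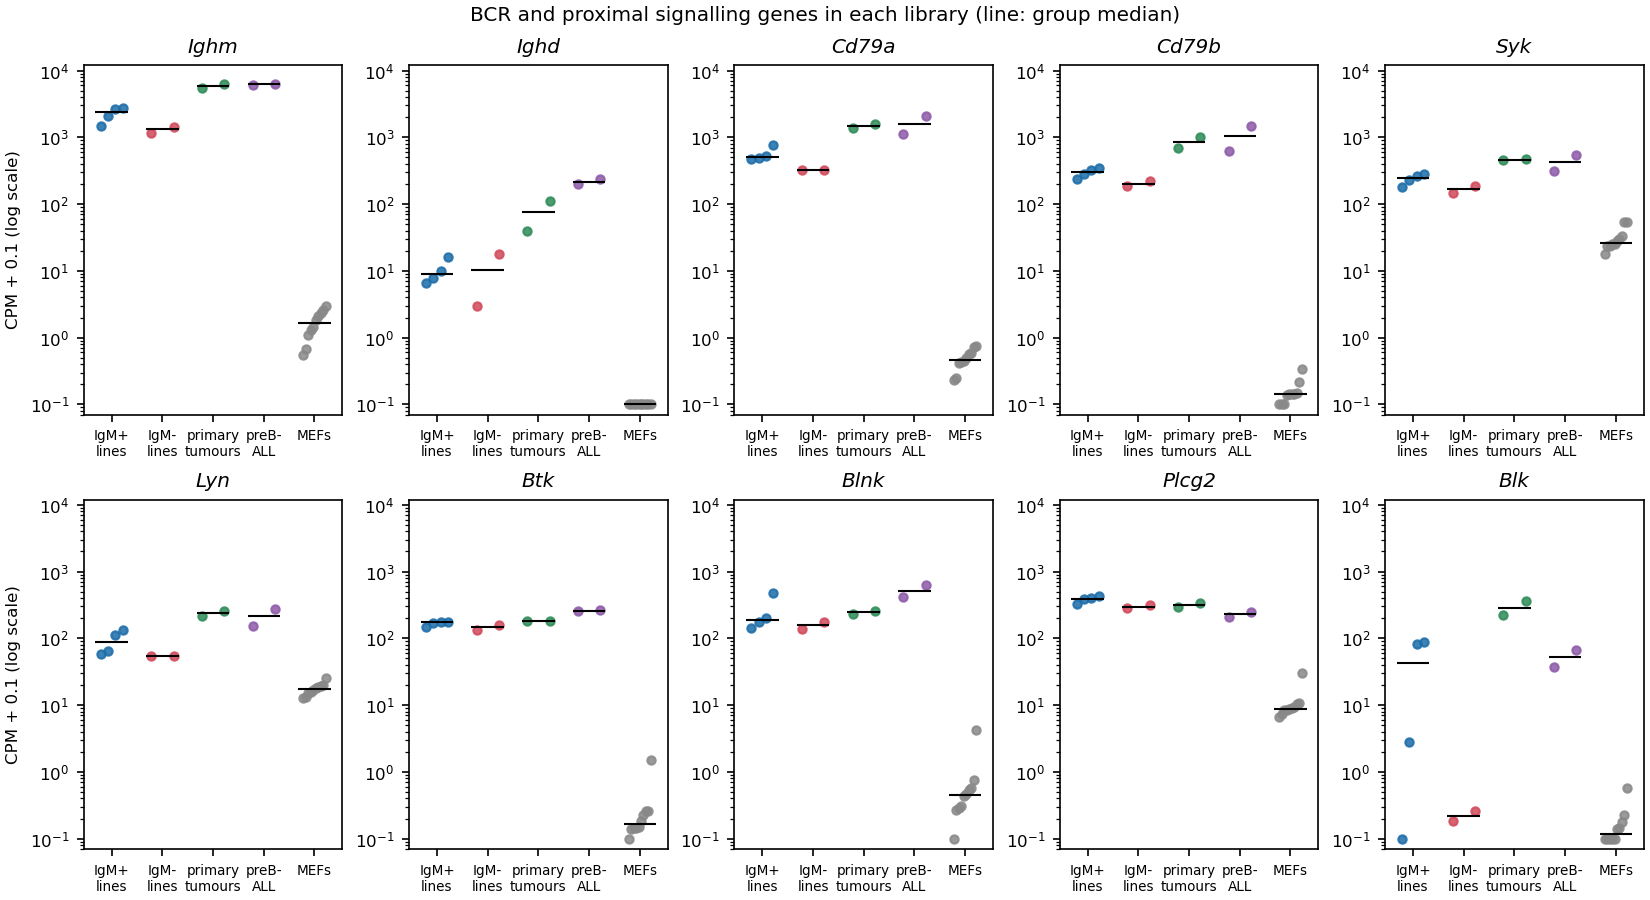
Level of each of the 10 genes in every library, as CPM + 0.1 on a log scale, by group (4 IgM-positive lines, 2 IgM-negative lines, 2 primary tumours, 2 preB-ALL and 10 MEF libraries); each point is 1 library and the bar is the group's median. Ighm, Cd79a and Cd79b are higher in tumours and preB-ALL than in any line, Plcg2 is the one gene lower in preB-ALL than in every other B-lineage library, and Blk ranges from 0 to 356 CPM.

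The heavy chain gene Ighm was read at 2711, 2649, 2110 and 1462 CPM in IgM-positive lines 1 to 4. It was at 1178 and 1441 CPM in the 2 IgM-negative lines, at 5392 and 6210 CPM in the tumours and in preB-ALL at 6213 and 6165 CPM. The absence of surface IgM in the label was thus not an absence of Ighm RNA. Reads on heavy chain V genes, 120 of which are listed, separated the lines more sharply. V genes encode the antigen-binding part of the chain and are spliced to Ighm only after recombination of the locus. For every 1000 Ighm reads there were 87.9, 155, 146 and 128 V reads in the IgM-positive lines, 104 and 91.3 in the tumours and 122 and 62.0 in preB-ALL. IgM-negative line 1 had 0.265 (8 reads against 30151 Ighm reads, exact Poisson 95% interval 0.115 to 0.523), and line 2 had 0.0299 (1 read against 33418, interval 0.000758 to 0.167). These intervals cover counting error only, and a read of 1 V gene may belong to a near copy of it. Kappa light chain V reads for every 1000 Igkc reads were 1188 and 1262 in the IgM-negative lines, above the 943 to 1153 of the IgM-positive lines. The IgM-negative lines therefore held RNA of the heavy chain constant region, with hardly any read of a listed heavy chain V gene. Their kappa V reads were in no lower a proportion to Igkc than in the other lines. The level of Igkc itself was 629 and 175 CPM in IgM-negative lines 1 and 2 and 375 to 724 CPM in the IgM-positive lines. Lambda light chain V reads numbered 9431 and 37 in IgM-negative lines 1 and 2 and 3 to 478 in the IgM-positive lines.

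**Figure D2:**
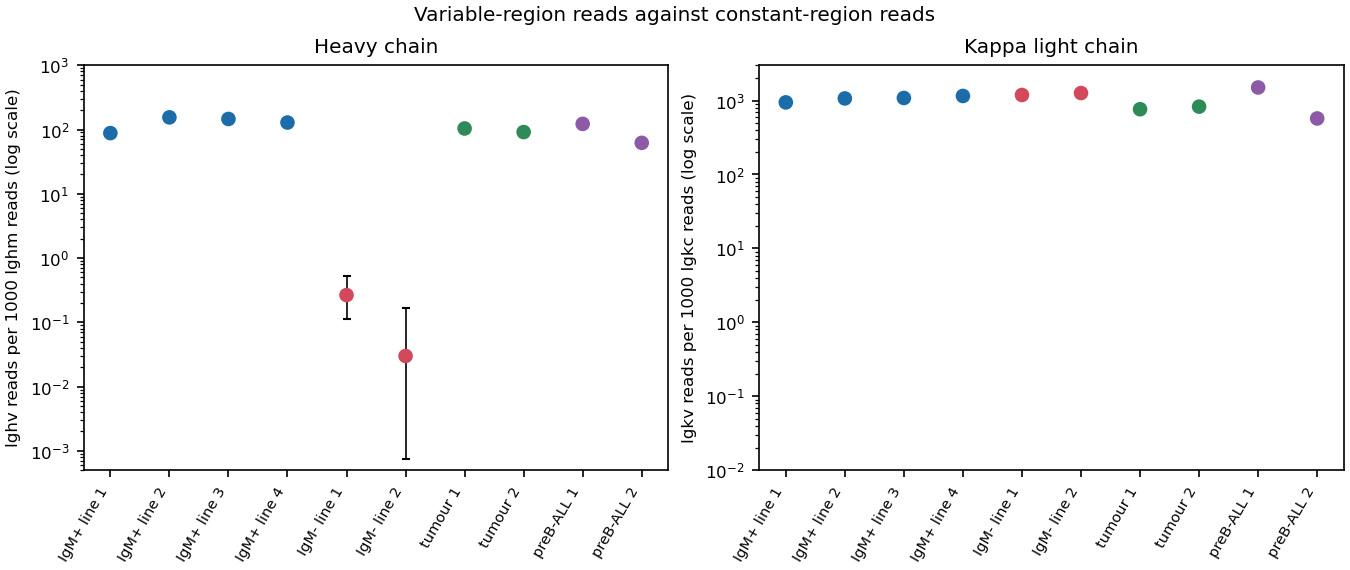
Reads on immunoglobulin V genes for every 1000 reads on the constant region gene (log scales), heavy chain at the left and kappa light chain at the right, 1 point per B-lineage library with the exact Poisson 95% interval at the left. The 2 IgM-negative lines lie at 0.265 and 0.0299 for the heavy chain, where the other 8 libraries lie between 62.0 and 155, and are not set apart for the kappa chain.

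Ighd, which is transcribed through Ighm and appears on mature B cells, was low in every line. It was at 6.37, 7.80, 15.9 and 10.0 CPM in the IgM-positive lines and at 2.89 and 17.7 CPM in the IgM-negative lines. The tumours held 39.3 and 111 CPM and preB-ALL 197 and 235 CPM. No line reached the lower tumour, and no tumour reached preB-ALL.

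Cd79a was at 466, 490, 528 and 755 CPM in the IgM-positive lines, at 327 and 325 CPM in the IgM-negative lines, at 1603 and 1393 CPM in the tumours and at 1114 and 2059 CPM in preB-ALL. Cd79b was at 323, 349, 240 and 287 CPM in the IgM-positive lines, at 218 and 184 CPM in the IgM-negative lines, at 680 and 999 CPM in the tumours and at 633 and 1477 CPM in preB-ALL. For both chains the IgM-negative lines were the lowest of the B-lineage libraries, and no line reached the tumours or preB-ALL.

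Among the kinases, Syk was at 180, 285, 229 and 267 CPM in the IgM-positive lines, 187 and 146 CPM in the IgM-negative lines, 455 and 472 CPM in the tumours, and 315 and 539 CPM in preB-ALL. Lyn, which can both start and restrain BCR signals, was at 132, 110, 65.2 and 57.8 CPM in the IgM-positive lines and at 54.8 and 54.2 CPM in the IgM-negative lines. It was at 260 and 213.2 CPM in the tumours and at 155 and 273 CPM in preB-ALL. Lines 1 and 2, those of the tumour mice, had the highest Lyn levels of the lines. Btk was the steadiest gene of the group. It lay between 134 and 177 CPM in the 6 lines, at 180 and 181 CPM in the tumours and at 261 and 259 CPM in preB-ALL.

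Blk, an SRC-family kinase of B cells, had the widest range. IgM-positive lines 1 and 2 held 89.5 and 83.0 CPM, whereas line 3 had 0 of 26379791 reads, which allows up to 0.114 CPM, and line 4 had 2.69 CPM. The IgM-negative lines had 4 and 2 reads, or 0.156 and 0.0862 CPM, the tumours 221 and 356 CPM, and preB-ALL 36.7 and 67.7 CPM. Blk thus divided the IgM-positive lines among themselves, with the lines of the tumour mice on one side and the other two beside the IgM-negative lines. Among 9094 genes of at least 10 CPM on average, the 3 with the most similar log2 level over the 10 B-lineage libraries were Galnt14 (Pearson's r = 0.99), Hexa (r = 0.97) and Cd38 (r = 0.97). Cd38, for example, was at 104 and 70.0 CPM in lines 1 and 2 and at 0.388 to 1.54 CPM in the other 4 lines. The libraries of a group share culture and preparation, so these r values describe the libraries only. The closest to Ighm in the same way were Itm2c (r = 0.99), Cant1 (r = 0.99) and Pld4 (r = 0.98).

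**Figure D3:**
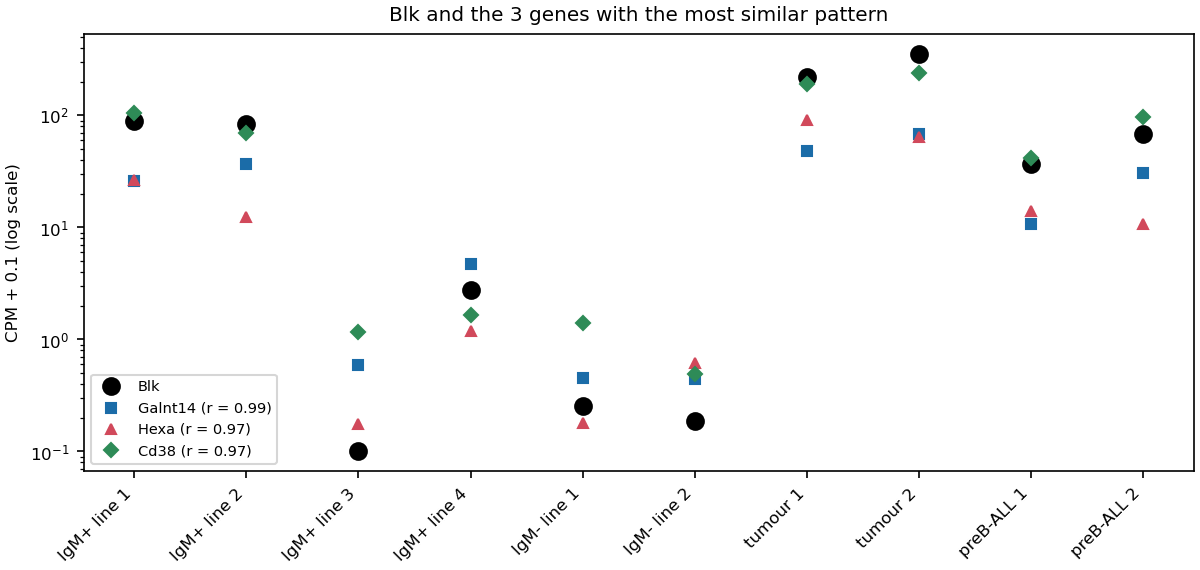
Level of Blk and of the 3 genes with the most similar pattern (Galnt14, Hexa and Cd38), as CPM + 0.1 on a log scale, in each of the 10 B-lineage libraries. All 4 genes are high in IgM-positive lines 1 and 2, both tumours and both preB-ALL samples, and Blk has 0 reads in IgM-positive line 3.

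The adaptor Blnk was at 175, 141, 481 and 204 CPM in the IgM-positive lines, at 177 and 139 CPM in the IgM-negative lines, at 258 and 230 CPM in the tumours and at 422 and 618 CPM in preB-ALL. IgM-positive line 3 alone among the lines reached the range of preB-ALL. Plcg2 went the other way. It was at 391, 329, 396 and 436 CPM in the IgM-positive lines, 285 and 312 CPM in the IgM-negative lines, 342 and 291 CPM in the tumours, and 248 and 208 CPM in preB-ALL, so that every lymphoma library was above both leukaemias.

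The first comparison asked how the IgM-negative lines differ from the IgM-positive lines. The fitted log2 fold change was below 0 for each of the 10 genes, but none was called. The changes of Ighm (-0.68 ± 0.265, SE), Cd79a (-0.70 ± 0.218), Cd79b (-0.51 ± 0.164), Lyn (-0.60 ± 0.346) and Plcg2 (-0.31 ± 0.157) belonged to genes whose 2 groups did not overlap in CPM before scaling. In these data fewer cells with a transcript and less of it per cell cannot be told apart. Differences were tested with limma on log2(CPM + 0.1) after TMM scaling, in which a gene is called at a Benjamini-Hochberg adjusted p-value under 0.05 over all genes tested. Of 12386 genes, 74 were called, 0.597% of all, with 0.0484% higher and 0.549% lower in the IgM-negative lines. Of the 10 BCR genes, limma called 0 of 10, limma-voom and edgeR's quasi-likelihood test 0 and DESeq2 1, which was Blk, where DESeq2 called 6.05% of all genes. At an unadjusted p under 0.05 there were 3 (Ighm, Cd79a and Cd79b) in the limma fit, where 11.3% of all genes had such a p. Ighm encodes the heavy chain of the protein by which the lines were divided, so its value was read as a check of the labels and not as a finding. That check was weak, with IgM-negative line 2 at 1441 CPM and IgM-positive line 4 at 1462 CPM. Cd79a had the smallest of the 10 adjusted p-values, 0.325 in limma. The median log2 fold change of the 10 genes was -0.49 against -0.02 over all genes. In CPM before TMM scaling, 5 of 10 lay below the IgM-positive lines without overlap, as did 14.8% of all genes. After that scaling the groups of Plcg2 overlapped. Blk had the largest fitted change, -4.90 ± 2.78, but its groups overlapped through line 3, its fold depends on the pseudocount (-3.50 with a pseudocount of 1, and -8.40 in DESeq2), and against lines 1 and 2 alone it was -8.56 ± 0.401 (limma adjusted p = 0.0342), a choice of lines made after the values had been seen. The sign for Ighd (-0.33 ± 0.739) changed to 0.94 when IgM-negative line 1 was left out.

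Of the other genes of the pathway, 69 in 6 lists, 55 were tested here and limma called 0. The list of the surrogate light chain genes, to which the related Vpreb3 was added, had the lowest median, -3.17 over 4 genes, all 4 of them at an unadjusted p under 0.05 and all 4 called by DESeq2, but 0 by limma-voom and edgeR. Vpreb2 passed the filter that drops low genes only through the IgM-positive lines, so it could only be called lower. Vpreb1, for example, was at 43.2 to 210 CPM in the IgM-positive lines and at 2.30 and 14.2 CPM in the IgM-negative lines. In the other lists the numbers at an unadjusted p under 0.05 were 1 of 4 for the further immunoglobulin constant genes and the J chain and 1 of 3 for the co-receptor and CD45, both higher in the IgM-negative lines. They were 3 of 13 for inhibitors, 4 of 21 for downstream effectors and 1 of 10 for the relatives of the kinases, adaptor and phospholipase, all lower, beside 11.3% of all genes. DESeq2 called 2 of the inhibitors and 3 of the effectors, all lower, and none of the other 3 lists, beside 6.05% of all genes.

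The second comparison set the 6 lymphoma lines against preB-ALL, the contrast of the study itself. Ighm, Ighd, Cd79a, Cd79b and Lyn were lower in the lymphoma lines and Plcg2 was higher. Ighd differed most, at 10.1 ± 5.70 CPM (SD, n = 6) against 197 and 235 CPM, a log2 fold change of -4.26 ± 0.612 (SE). The other receptor genes changed by -1.40 ± 0.358 (Ighm), -1.35 ± 0.337 (Cd79a) and -1.53 ± 0.315 (Cd79b), that is, they were 2.63-, 2.55- and 2.89-fold lower. Without preB-ALL 1 the change of Cd79b was -2.13, and without preB-ALL 2 it was -1.02. Lyn changed by -1.11 ± 0.375, and Plcg2 by 1.00 ± 0.186, a 2.00-fold higher level. Adjusted p-values from limma were 0.0139 for Ighm, 0.00081 for Ighd, 0.0121 for Cd79a, 0.00507 for Cd79b, 0.0409 for Lyn and 0.00308 for Plcg2. Not called were Syk (-0.61 ± 0.267, adjusted p = 0.0953 in limma), Btk (-0.34 ± 0.140, adjusted p = 0.0779), Blnk (-1.01 ± 0.447, adjusted p = 0.10) and Blk (-4.21 ± 2.82, adjusted p = 0.255). The value for Blk is a mean of logs over lines with 0 to 89.5 CPM. It was -0.51 in edgeR and -0.61 in DESeq2, which compare mean reads, and ran from -5.30 without IgM-positive line 1 to -3.32 without line 3. In CPM before TMM scaling, Syk and Btk nevertheless lay below preB-ALL in all 6 lines. After that scaling, IgM-positive lines 2 and 4 lay above preB-ALL 1 for Syk. DESeq2 called 8 of the 10 genes, the 6 above with Syk (adjusted p = 0.0291) and Btk (adjusted p = 0.00641), and 43.9% of all genes. limma-voom and edgeR called the 6 only, where they called 6005 and 5560 of all 13961 genes. limma also called Btk with RLE scaling (5995 of 13961 genes called) and with all 10 libraries in the fit (6253 of 14378 called).

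Calls were common in this comparison. Of 13961 genes, 6059 were called, 43.4%, with 20.9% higher and 22.5% lower in the lines, so 6 of 10 genes called is to be read against that share. Without overlap between groups in CPM before TMM scaling, 7 of the 10 genes lay below preB-ALL and 1 above, against 38.3% and 15% of all genes. After that scaling the groups of Syk and Lyn overlapped, and the shares of all genes were not counted again. The median over the 10 genes was -1.23 against -0.07 over all genes. Without a scaling factor the median of all genes moved to -0.42, and 1691 genes were higher and 4400 lower in place of 2914 and 3145. All 10 genes kept their sign under that scaling, in which 9 of 10 were called, and 43.6% of all genes. With preB-ALL 2 left out only Ighd was called (22.2% of all genes), and with the tumours in the place of their own lines only Plcg2 was (25.9%). The 4 IgM-positive lines on their own gave 4 calls (Ighd, Cd79a, Cd79b and Plcg2), where 36.9% of all genes were called. The 2 IgM-negative lines on their own gave 8, which added Ighm, Lyn, Blnk and Blk to these, where 39% of all genes were called; the difference between the sets of lines was not tested here.

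**Figure D4:**
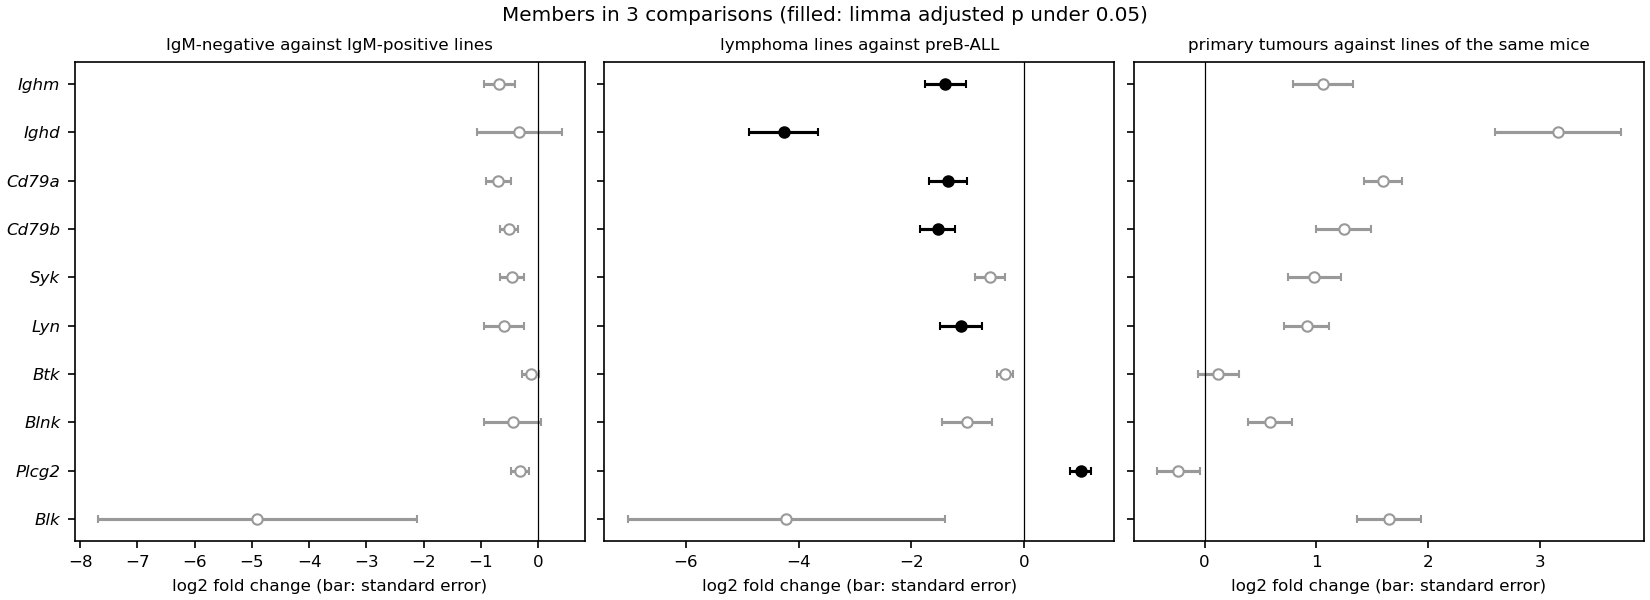
Log2 fold change of the 10 genes on the log2(CPM + 0.1) scale with its standard error in the 3 comparisons, each as the first-named group minus the second; filled points have a limma adjusted p-value under 0.05 over all genes. Points are filled only in the comparison with preB-ALL, for 6 of the 10 genes, and most values lie left of 0 in the first and second panels and right of 0 in the third.

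In the wider pathway, 27 of 61 tested genes in the 6 lists were called, a share near the 43.4% of all genes. Of these, 5 were higher and 22 lower in the lines, and the median of the 61 was -0.63. All 4 genes of the surrogate light chain list were lower, among them Vpreb2 (2.14 against 635 CPM on average, log2 fold change -8.88 ± 1.35, limma adjusted p = 0.00109) and Vpreb1 (97.5 against 1377 CPM, -4.57 ± 1.58). The call for Vpreb1 was lost in 7 of 21 alternatives, and DESeq2 gave no adjusted p for Vpreb2. Of 6 further constant region and J chain genes, 2 were lower, Ighg2b (0.265 against 26.9 CPM, -6.59) and Jchain (0.0255 against 1.44 CPM, -3.41). Both passed the filter that drops low genes only through preB-ALL, so only a lower call was open to them. Of the same 6 genes 1 was higher, the kappa constant gene Igkc (486 against 200 CPM, 2.37 ± 0.826, limma adjusted p = 0.0465). The mean of preB-ALL stands for 32.6 and 368 CPM, and preB-ALL 2 lay within the 175 to 724 CPM of the lines. The log2 fold change of Igkc was 0.64 without preB-ALL 1 and 4.02 without preB-ALL 2, and its call was lost in 14 of 21 alternatives. Of the 4 co-receptor genes and CD45, 3 were lower, including Cr2 (0.149 against 13.8 CPM, -5.36), the complement-binding chain of the co-receptor. Cr2 too passed the filter only through preB-ALL. Leaving out preB-ALL 1 or 2 moved the log2 fold change of Ighg2b to -7.60 or -5.60 and that of Cr2 to -4.65 or -6.13, with the call kept each time, and Vpreb1 was at -3.75 without IgM-negative line 1 and Vpreb2 at -9.51 without IgM-positive line 2.

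Among 13 tested inhibitors of BCR signalling, 3 were higher and 2 lower, but without a scaling factor 1 was higher and 3 lower. The counts of this paragraph are to be read beside all genes, of which limma with TMM scaling called 20.9% higher and 22.5% lower. Cbl, a ubiquitin ligase that tags active kinases, was at 74.6 against 22.6 CPM (2.20 ± 0.312, limma adjusted p = 0.000772), and Cd72, an inhibitory receptor, at 173 against 83.7 CPM (1.31). Siglecg, another inhibitory receptor, was at 60.1 against 362 CPM (-2.22), and the adaptor Dok1 at 23.4 against 55.3 CPM (-0.87). Downstream effectors were called in 7 of 22 cases, all lower, with Vav3, a guanine nucleotide exchange factor, at 0.190 against 34.8 CPM (-6.92 ± 0.893) and the scaffold Bank1 at 8.28 against 116 CPM (-4.79). Vav3 passed the filter that drops low genes only through preB-ALL, so it could only be called lower. Of 12 relatives of the kinases, adaptor and phospholipase, 4 were lower and 1 higher. Lcp2, which has the role of Blnk in T cells, was at 0.711 against 26.5 CPM (-5.79). The higher one was Lck, the SRC-family kinase of T cells, at 25.0 against 3.50 CPM (2.68 ± 0.831, limma adjusted p = 0.0299); neither limma-voom nor limma without a scaling factor called any of these relatives higher. The calls for Lck and Cd72 were each lost in 5 of 21 alternatives, and that for Bank1 in 5 of the 20 that gave an adjusted p. Without preB-ALL 1 or 2 the log2 fold change of Cbl was 2.83 or 1.48, that of Siglecg -2.90 or -1.63 (the latter not called) and that of Vav3 -6.28 or -7.60, and that of Bank1 was -5.44 without IgM-positive line 1 and -4.13 without line 4.

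**Figure D5:**
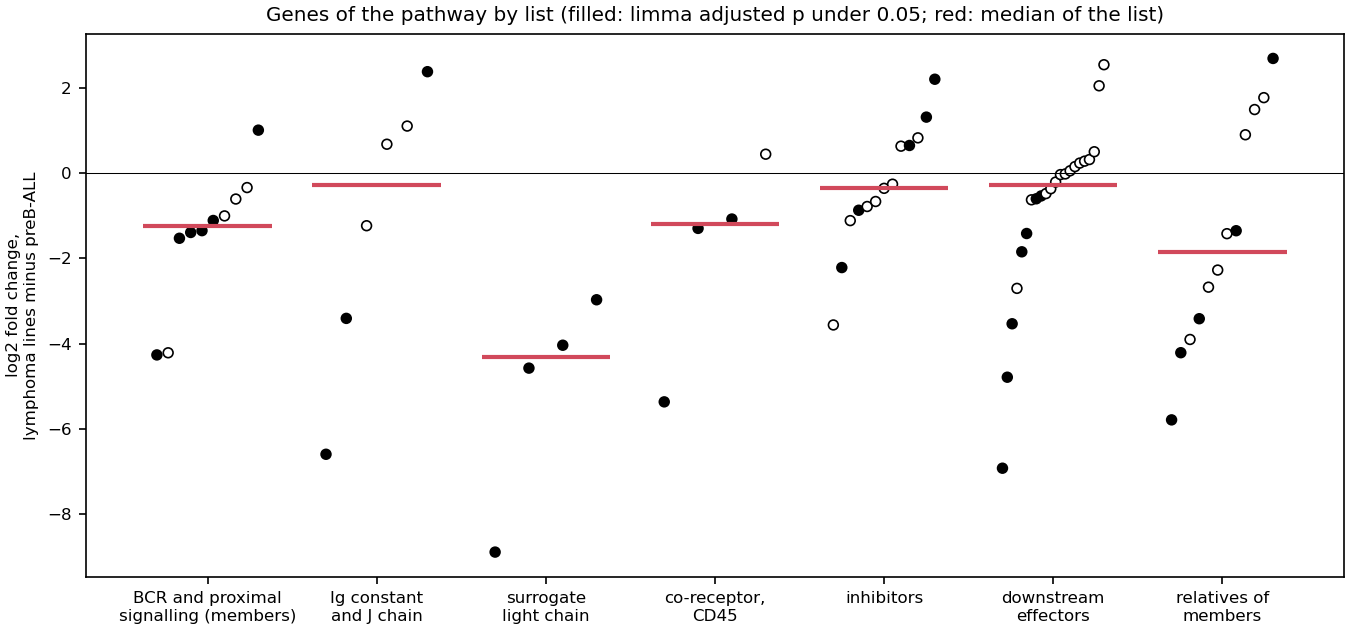
Log2 fold change of each tested gene, lymphoma lines minus preB-ALL, by list; filled points have a limma adjusted p-value under 0.05, and the red bar is the median of the list. The list medians are -1.23 for the members, -4.31 for the surrogate light chain, -1.85 for the relatives, -1.19 for the co-receptor and CD45, -0.36 for the inhibitors, -0.29 for the downstream effectors and -0.28 for the constant genes.

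The third comparison set the 2 primary tumours against the 2 lines that came from the tumour mice, IgM-positive lines 1 and 2. In CPM before TMM scaling, 9 of the 10 genes were higher in both tumours than in both lines, Plcg2 being the exception. After that scaling Btk was a further exception, with IgM-positive line 1 above both tumours. The limma fit called none of the 10 genes. Cd79a was at 1498 ± 149 CPM in the tumours and 478 ± 17.0 CPM in the lines (SD, n = 2 each), with a log2 fold change of 1.60 ± 0.170 (SE). Changes of 3.16 ± 0.560 were fitted for Ighd, 1.65 ± 0.285 for Blk, 1.25 ± 0.246 for Cd79b, 1.06 ± 0.267 for Ighm, 0.98 ± 0.238 for Syk and 0.91 ± 0.198 for Lyn. That of Ighd was 3.96 without tumour 1 and 2.40 without tumour 2. Those of Blnk (0.58 ± 0.194), Btk (0.12 ± 0.184) and Plcg2 (-0.23 ± 0.190) were smaller. Summed myeloid markers were 46.4 and 40.2 CPM in these tumours and 15.2 and 6.30 CPM in the 2 lines, and their part in the result was not tested.

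Calls were rare here, 42 of 12719 genes or 0.33%, with 0.267% higher and 0.0629% lower in the tumours. Of the 10 genes limma called 0, limma-voom and edgeR's quasi-likelihood test 0, and DESeq2 7 (all but Btk, Blnk and Plcg2), where DESeq2 called 16.5% of all genes. At an unadjusted p under 0.05 there were 8 in the limma fit, all higher in the tumours, where 25.9% of all genes had such a p. The limma adjusted p-values ran from 0.0558 (Cd79a) to 0.721 (Btk). A complete separation of the groups in the upward direction, in CPM before TMM scaling, was found for 9 of 10 here and for 31.1% of all genes. That of Btk was lost after the scaling. Title and description of each tumour library give opposite mouse numbers. With a replicate block by the titles, limma called the same 7 of 10 genes as DESeq2, with adjusted p-values of 0.00659 for Cd79a, 0.00795 for Blk, 0.0132 for Ighd, 0.0148 for Cd79b, 0.0232 for Syk, 0.0236 for Lyn and 0.0268 for Ighm. That fit called 28.3% of all genes, and with a block by the descriptions limma called 0 of the 10. The heavy chain V gene with the most reads was Ighv1-47 in tumour 1 and in IgM-positive line 2, and Ighv1-77 in tumour 2 and in line 1, which are the pairs of the titles. Against all 4 IgM-positive lines the tumours gave 5 calls, for Ighm, Ighd, Cd79a, Cd79b and Syk, and 10.9% of all genes were called.

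In the 6 lists, 65 genes were tested in the tumours and 1 was called by limma, Cr2, at 14.9 and 12.4 CPM against 0.203 and 0.225 CPM (5.41 ± 0.426, adjusted p = 0.0498). Cr2 passed the filter that drops low genes through the tumours alone, so it could only be called higher. Its call was lost in 10 of 17 alternatives, limma-voom and edgeR among them. Of the other constant genes and J chain, 8 of 9 were higher at an unadjusted p under 0.05, and 0 were called by limma, limma-voom or edgeR and 8 by DESeq2. Ighg3, Ighg2c, Igha and Jchain were at 0 CPM in lines 1 and 2. These genes passed the filter that drops low genes through the tumours alone, so only a higher call was open to them. Ighg2b was at 367 CPM in tumour 1 and 3.54 CPM in tumour 2, and its level in lines 1 and 2 was 0 and 1.499 CPM. The genes of the surrogate light chain list went the other way in part, with 2 of 4 lower at an unadjusted p under 0.05 and 0 called by limma, limma-voom or edgeR, and 1 called by DESeq2. Vpreb2 of this list passed the filter through the lines alone. Igll1 was at 31.3 and 0.499 CPM in the tumours and at 78.6 and 377 CPM in their lines, whereas Vpreb3, which is not itself a part of the surrogate light chain, was at 275 and 261 CPM against 185 and 242 CPM. For inhibitors, effectors and relatives of the members limma called 0 of 14, 0 of 21 and 0 of 13, and the numbers at an unadjusted p under 0.05 were 8 (7 higher and 1 lower in the tumours), 6 (5 and 1) and 8 (6 and 2), beside 25.9% of all genes. DESeq2 called 7, 5 and 8 of them, beside 16.5% of all genes, and limma-voom and edgeR called 0. All 4 genes of the co-receptor and CD45 were higher at an unadjusted p under 0.05, and DESeq2 called all 4. With the replicate block by the titles, limma called 8 of 14 inhibitors, 7 of 21 effectors and 8 of 13 relatives, where 28.3% of all genes were called. That fit also called 3 of the 4 surrogate light chain genes, all 4 of the co-receptor and CD45 and all 9 constant and J chain genes. Among these 9 were the genes at 0 CPM in lines 1 and 2, for which only a higher call was open. With the block by the descriptions limma called 0 in each of the 6 lists.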

How the data were processed

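RNA was measured in 20 libraries, and the comparisons used the 10 of the B lineage. The authors aligned the reads with Rsubread to GRCm38, counted them per Entrez gene and deposited CPM values, without a log or a further scaling factor. In every library 100% of the CPM values were whole multiples of 1 read (tolerance 0.01 reads), so read counts could be recovered, and depth was 12474885 to 26678417 reads. The precision of a comparison is also limited by its 2 to 6 libraries a group. Whether counting used the strand is not given in the sources used here. Gene symbols, positions and promoters came from RefSeq (GRCm38.p6), which matched 25242 of 25869 identifiers and all 10 members.

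The members and gene lists were chosen with earlier results of these data known. Each fit held the libraries of its own comparison. The recovered reads served to drop low genes with filterByExpr of edgeR, CPM were scaled by TMM, 0.1 was added and log2 taken, and limma (lmFit, eBayes with trend) was applied, so fold changes are means on the log2(CPM + 0.1) scale, and those of genes with few reads depend on the pseudocount. The Benjamini-Hochberg adjustment ran over all tested genes, with a threshold of 0.05. The study used limma-voom, which is an alternative here because the deposited unit is CPM. Named genes were all members, from each list and comparison up to 2 called genes in each direction with the largest change, and the 3 genes most like Ighm and Blk by Pearson's r of log2(CPM + 0.1). Some genes named by this rule are left out here. Prkcb and Rasgrp1 (closing section), Dcn, Pdgfra, Pdgfrb, Ighv1-47, Ighv1-77, Igll1, Vpreb3, Ighg3, Ighg2c, Igha and, outside preB-ALL, Vpreb1, Vpreb2, Igkc, Ighg2b and Jchain were named after their values had been seen. Alternatives were limma-voom, edgeR's quasi-likelihood test, DESeq2, RLE or no scaling, totals without immunoglobulin and mitochondrial genes, pseudocounts of 0.5 and 1, no filter, all 10 libraries in the fit, other sets of lines, a replicate block and each library left out. For the pairing of tumours and lines, the differences between the 2 tumours and between their 2 lines correlated across 12719 genes with r = 0.60 when paired by the titles. Pairing by the descriptions only reverses the sign of 1 of these differences, so its r of -0.60 is no further result. The code was tested on simulated data. R 4.3.3, limma 3.58.1, edgeR 4.0.16, DESeq2 1.42.0 and Python 3.11.15 with matplotlib 3.10.9 were used.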

Additional observations from a re-analysis of the deposited data

Results flagged for a closer look

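Blnk stood out in 1 of the 6 lymphoma lines. IgM-positive line 3 had 481 CPM, and the next highest line had 204 CPM, a gap that takes up 0.811 of the whole range of the 6 lines, more than Dixon's test allows at the 95% level. In all, 20 groups of values were examined in this way and 1 was singled out, which is about what chance gives (1 in 20). The same line had 0 reads of Blk.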

How the results depend on the processing

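Members called in the comparison by IgM numbered 1 in place of 0 with DESeq2 and 1 with only the IgM-positive lines of the tumour mice, a choice made after seeing the data. All genes called numbered 1 (limma-voom), 24 (edgeR), 749 (DESeq2), 47 (pseudocount 1), 153 (all 10 libraries), 120 (only the lines of the tumour mice) and 0 (these lines left out, also chosen after seeing the data, when Blk was not tested), and 35 to 117 with 1 library left out. In the comparison with preB-ALL, 1 member and 3668 genes were called with the tumours standing in for their lines, and 1 to 6 members and 3177 to 6061 genes with 1 library left out, the lowest without preB-ALL 2. The call for Lyn was lost in 8 of 21 alternatives, that for Ighm in 4, those for Cd79a and Cd79b in 2 each, and those for Ighd and Plcg2 in 1 each.

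In the tumours, members called were 7 (DESeq2), 1 (all 10 libraries), 5 (all 4 IgM-positive lines), 7 (replicate block by titles) and 0 (replicate block by descriptions). All genes called were 0 with limma-voom, edgeR, RLE scaling, totals without immunoglobulin and mitochondrial genes, no filter and any 1 library left out (0 to 0), 79 without scaling, 2100 with DESeq2, 779 with all 10 libraries, 1418 with all 4 lines, 3600 with the replicate block by titles and 0 by descriptions. Unadjusted p under 0.05 was found there for 1795 to 5533 genes. Signs turned, without a call, for Ighd by IgM (0.070 with edgeR, 0.074 with DESeq2, 0.11 with only the lines of the tumour mice, and -1.58 to 0.94 with 1 library left out, the latter without IgM-negative line 1), Blnk by IgM (0.078 with only these lines) and Btk in the tumours (-0.075 to 0.30 with 1 library left out, the lowest without IgM-positive line 2). The causes were not tested. Depth limits Blk, with 0 to 54 reads in 4 lines.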

Other observations

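Prkcb, the protein kinase C of the BCR pathway, was at 274, 193, 36.5 and 116 CPM in the IgM-positive lines and at 0.273 and 27.9 CPM in the IgM-negative lines. Every IgM-positive line was thus above both IgM-negative lines, but line 3 was nearer to the higher of these than to the other IgM-positive lines. Rasgrp1, an exchange factor for RAS, was at 113 and 121 CPM in IgM-positive lines 1 and 2, at 0.114 and 0.996 CPM in lines 3 and 4, and at 3.55 and 47.2 CPM in the IgM-negative lines, so that it divided the IgM-positive lines among themselves. Both genes were picked after their values had been seen and carry no test.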
